A study of Homo sapiens with 16 samples.

Results

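The genes described here are 9 members of the TGF-beta and SMAD pathway, seen through LSD1 ChIP-seq in 4 HEK-based human cell lines. They are the ligands TGFB1 and TGFB2, the receptors TGFBR1 and TGFBR2, the signal carrier SMAD3, the inhibitory SMAD6 and SMAD7, and the nuclear corepressors SKI and SKIL. LSD1 (KDM1A) is a histone demethylase found in repressor complexes on chromatin, and the long non-coding RNA HOTAIR binds it as well as PRC2, which methylates histones. An LSD1 island is a stretch in which the authors' caller found more immunoprecipitated (IP) than Input reads. Each gene stands for a fixed hg19 window of 70 to 180 kb around it, and every island that met a window was taken: 145 of the 85586 islands in the 8 deposited lists. The genes were selected on results from these same islands, so the values below are a description and no test was run on them.

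The groups were Epi-CTR, the control line, Epi-HOT, which expresses HOTAIR, Epi-HOT-dP, whose HOTAIR lacks the PRC2-interacting part, and Epi-HOT-dL, whose HOTAIR lacks the LSD1-interacting part. The labels give these lines by name only, with the word delta where d stands here, and what each expresses is background knowledge of the study. How HOTAIR is driven and whether a line is 1 clone are not given in the sources used here, and no agent was added to any group as far as the labels say. Each line had 2 independently grown cultures, and each culture gave an IP and an Input library and a single list of islands. The lists held 1116 to 20592 islands and no reads, so the depth behind a missing island is unknown. Short lists set Epi-HOT replicate 2 (1778 islands) apart, and likewise Epi-HOT-dP replicate 1 (1116 islands), from the other 6 libraries, at 6557 islands or more, and values with and without them are given where a result rests on them.

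TGF-beta ligands bring together the type II receptor TGFBR2 and the type I receptor TGFBR1, and the type I receptor then phosphorylates SMAD2 and SMAD3. These join SMAD4, enter the nucleus and act on target genes. SMAD7 blocks the pathway at the receptors and is itself induced by it, and SMAD6 is also an inhibitory SMAD. SKI and SKIL (SnoN) bind SMAD proteins in the nucleus and hold their targets down. In epithelial cells, those of the kidney among them, the pathway is known for driving the epithelial-mesenchymal transition.

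The chromosome of each window matched that of its gene in the RefSeq table for 9 of 9 members, but that table belongs to GRCh38.p14, so islands could not be placed on hg19 exons, introns or start sites. Gene spans in that table are 23.6 kb for TGFB1 to 130 kb for SMAD3, smaller than the windows, which therefore also hold flanking sequence. The nearest coding neighbours are CCDC97 and B9D2 for TGFB1, RRP15 and LYPLAL1 for TGFB2, COL15A1 and ALG2 for TGFBR1, RBMS3 and GADL1 for TGFBR2, CTIF and DYM for SMAD7, FAAP20 and MORN1 for SKI, and PRKCI and CLDN11 for SKIL. SMAD6 and SMAD3 are neighbours, with LCTL on the far side of SMAD6 and AAGAB on that of SMAD3, and their windows lie 230 kb apart. An island in a window is not thereby an island of the member.

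SMAD proteins are known to bind the palindrome GTCTAGAC, so promoter sequences of the members were searched for it. RefSeq promoters (GRCh38.p14, 250 bases before to 50 after a start) were at hand for 8 of the 9 members, all but SKI, with 22 start sites in all. A single one, of SMAD6, held the palindrome, which reads the same on both strands, against 0.202% of the 35116 promoters in the table. The stretch is shown because no other member promoter searched holds these letters, which are in capitals, and the first of them lies 12 bases before the start. The match is a description of letters, and it was not placed against the islands.
SMAD6 promoter, chromosome 15, plus strand: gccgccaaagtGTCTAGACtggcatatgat

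Islands covered more of these windows than of the autosomes in every library, and nothing is read from this, as the islands chose the genes. Epi-CTR islands took up 22.9 ± 5.31% of the window bases (mean ± SD, n = 2), against 3.06 ± 0.267% of the autosomes. Epi-HOT-dL had 23 ± 16.7% against 5.01 ± 3.17%, Epi-HOT 10.4 ± 13.2% against 1.78 ± 1.72%, and Epi-HOT-dP 11 ± 12.4% against 1.63 ± 1.67%. The SDs of the last 3 lines are wide because replicates differed, and the lines cannot be told apart on these totals. By library, the windows were covered to 26.7% and 19.2% in Epi-CTR replicates 1 and 2, 19.7% and 1.08% in Epi-HOT, 2.21% and 19.7% in Epi-HOT-dP, and 11.2% and 34.8% in Epi-HOT-dL. With the short lists left aside, the remaining library of Epi-HOT and that of Epi-HOT-dP were covered about as much as Epi-CTR replicate 2.

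**Figure D1:**
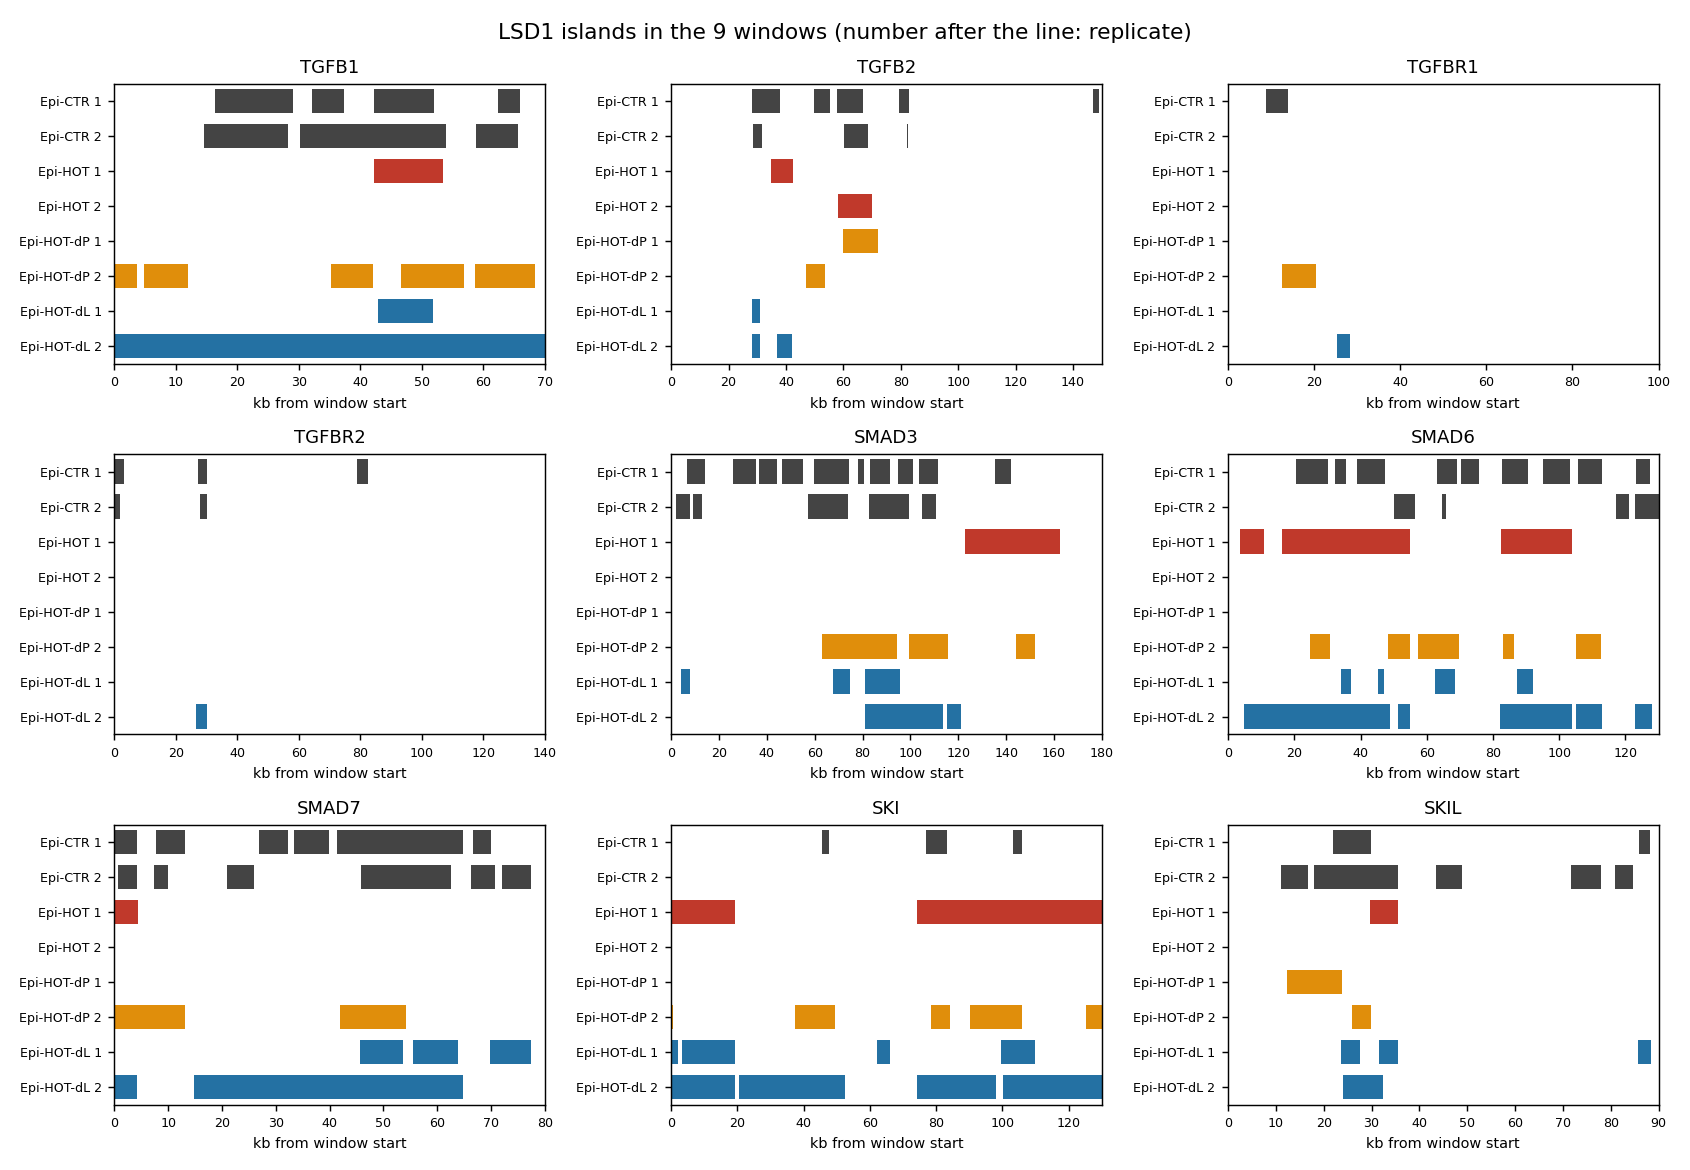
Each panel is a gene window, with kb from its start on the horizontal axis and the 8 libraries as rows; a bar is an LSD1 island, cut at the window's edges, and colours mark the line. TGFB2 alone has a bar in every row, while Epi-HOT replicate 2 has 1 bar in all and Epi-HOT-dP replicate 1 has 2.

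The lists differed in how many of the 9 windows they reached. Epi-CTR replicate 1 and Epi-HOT-dL replicate 2 had an island in 9, Epi-HOT-dP replicate 2 in 8, and 7 were reached by Epi-CTR replicate 2, by Epi-HOT replicate 1 and by Epi-HOT-dL replicate 1. Epi-HOT-dP replicate 1 reached 2 windows, TGFB2 and SKIL, and Epi-HOT replicate 2 only TGFB2. For scale, among 12256 autosomal tiles of 130 kb, the median window width, that had an island in any list, Epi-CTR replicates 1 and 2 reached 68.7% and 59.4%, those of Epi-HOT 41.3% and 12.5%, those of Epi-HOT-dP 6.9% and 39.7%, and those of Epi-HOT-dL 64.5% and 61.6%. Epi-HOT had an island in both cultures in the TGFB2 window alone (5.11% of tiles), and Epi-HOT-dP in the TGFB2 and SKIL windows (3.52%).

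The ligand TGFB1 lies on chromosome 19, and its window, from 41810001 to 41880000, was the most fully covered of the 9 in a single library. Islands took up 44.6% and 63.1% of it in Epi-CTR replicates 1 and 2, 16.0% and 0% in Epi-HOT, 0% and 53.7% in Epi-HOT-dP, and 12.9% and 100% in Epi-HOT-dL. Both Epi-CTR libraries lay above both of Epi-HOT and between the Epi-HOT-dL libraries. The full cover in Epi-HOT-dL replicate 2 came from 1 island of 102.2 kb, from 41805401 to 41907600, with an FDR of 1.21e-10, which runs past both edges of the window. A stretch of about 10 kb in the middle was called in 6 libraries, at 41852201 to 41862000 in Epi-CTR replicate 1 (FDR 4.99e-08), 41852201 to 41863400 in Epi-HOT replicate 1 (3.33e-05), 41852801 to 41861800 in Epi-HOT-dL replicate 1 (0.00699) and 41856601 to 41866800 in Epi-HOT-dP replicate 2 (0.0149), and inside wider islands in Epi-CTR replicate 2 and Epi-HOT-dL replicate 2. It is the only part of the window with an island in Epi-HOT. The parts on either side, 41824601 to 41839000 and 41868801 to 41876000, were held by both Epi-CTR libraries and by neither of Epi-HOT. The first of them had the smallest FDR of the window, 4.47e-13, in the Epi-CTR replicate 1 island from 41826401 to 41839000.

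TGFB2, on chromosome 1 from 218490001 to 218640000, was the only member with an island in all 8 libraries, as 0.335% of the 130 kb tiles had. Cover was 20.0% and 8.00% in Epi-CTR, 5.07% and 7.73% in Epi-HOT, 8.13% and 4.40% in Epi-HOT-dP, and 1.87% and 5.33% in Epi-HOT-dL. The libraries did not meet at a shared place. At 218518201 to 218532400 an island was called in both Epi-CTR, both Epi-HOT-dL and Epi-HOT replicate 1. Further along, at 218547801 to 218562000, islands were called in both Epi-CTR libraries, Epi-HOT replicate 2 (FDR 0.00569, width 11.6 kb) and Epi-HOT-dP replicate 1 (7.15e-05, 12.2 kb). The Epi-CTR islands there had FDRs of 5.81e-04 and 0.0292, and all 4 islands stood in the lower part of their own lists, 56.0% and 87.8% of the way down in Epi-CTR, 71.1% in Epi-HOT and 78.3% in Epi-HOT-dP. So the pair of libraries that lacked islands at nearly all other members shared this stretch, which the other libraries of their lines did not have. A narrow region at 218569201 to 218572800 was found in the Epi-CTR libraries alone, with FDRs of 0.00218 and 2.14e-05, and in Epi-CTR replicate 2 it was 0.4 kb wide, the narrowest island of all 145. The smallest FDR of the window, 9.83e-06, belonged to an Epi-CTR replicate 1 island from 218539601 to 218545200, which met an island of Epi-HOT-dP replicate 2 (0.0137) and none of the other 6 libraries.

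The receptor windows held the fewest islands of the 9. TGFBR1, on chromosome 9 from 101840001 to 101940000, had 3 islands in 3 libraries, of 5.2 kb in Epi-CTR replicate 1 (FDR 2.59e-04), 7.8 kb in Epi-HOT-dP replicate 2 (0.0246) and 3.2 kb in Epi-HOT-dL replicate 2 (0.0141). Their cover was 5.20%, 7.80% and 3.20% of the window and 0% in the other 5 libraries, so no line had an island in both cultures. The first and second of these met at 101848801 to 101860400.

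TGFBR2, on chromosome 3 from 30620001 to 30760000, had 6 islands, all narrow at 2.4 to 4.2 kb. It was covered to 6.86% and 3.00% in Epi-CTR, 0% in both Epi-HOT and both Epi-HOT-dP libraries, and 0% and 2.43% in Epi-HOT-dL. Both Epi-CTR libraries lay above the other 6. The region 30646601 to 30650200, of 3.6 kb, belonged to both Epi-CTR cultures (FDRs of 4.75e-11 and 0.00298) and in Epi-HOT-dL replicate 2 (5.17e-05). The 3 islands overlapped, and their ends lay within 200 bp of each other. At the window's edge, 30619001 to 30623200 was an island region of the Epi-CTR libraries alone (0.00138 and 0.00300). No Epi-HOT or Epi-HOT-dP library thus had an island in the TGFBR2 window, the longer list of each line included. Over all regions held by both Epi-CTR libraries, 69.3% had no island in either Epi-HOT library. The share without an island in either Epi-HOT-dP library was 69.6%, so nothing is read from the absence at TGFBR2.

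SMAD3, the receptor-activated SMAD, lies on chromosome 15, and its window, from 67330001 to 67510000, held the smallest FDR of any member. Islands covered 44.2% and 27.0% of it in Epi-CTR, 22.0% and 0% in Epi-HOT, 0% and 31% in Epi-HOT-dP, and 14.1% and 21.3% in Epi-HOT-dL. Epi-CTR lay above Epi-HOT and Epi-HOT-dL in both libraries and overlapped Epi-HOT-dP. The peak of the window was an island from 67389601 to 67404200 in Epi-CTR replicate 1 (FDR 1.15e-35, place 45 of 20592 in its list) and from 67387401 to 67403800 in replicate 2 (2.06e-19, place 65 of 14938). Epi-HOT-dL replicate 1 had 67397601 to 67404800 (3.32e-06, place 387 of 16768), which lies over the end of the Epi-CTR islands, and Epi-HOT-dP replicate 2 had a wider island over it, 67393001 to 67424200 (3.85e-04). Neither Epi-HOT library had an island there. Merged over all lists, these islands belonged to a region from 67387401 to 67451200 that 5 libraries held, the most in the window.

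The only SMAD3 island of Epi-HOT was in replicate 1, 39.6 kb wide, from 67452801 to 67492400, with an FDR of 0.0226, at place 5170 of 6557. It began past the Epi-CTR cluster and met a single Epi-CTR island, 67465201 to 67472200 in replicate 1. Of the 38.4 kb that lay inside islands of both Epi-CTR libraries in the SMAD3 window, Epi-HOT replicate 1 covered 0%, Epi-HOT-dP replicate 2 65.6%, and the Epi-HOT-dL libraries 43.8% and 49.5%. The libraries with short lists covered 0% as well.

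**Figure D2:**
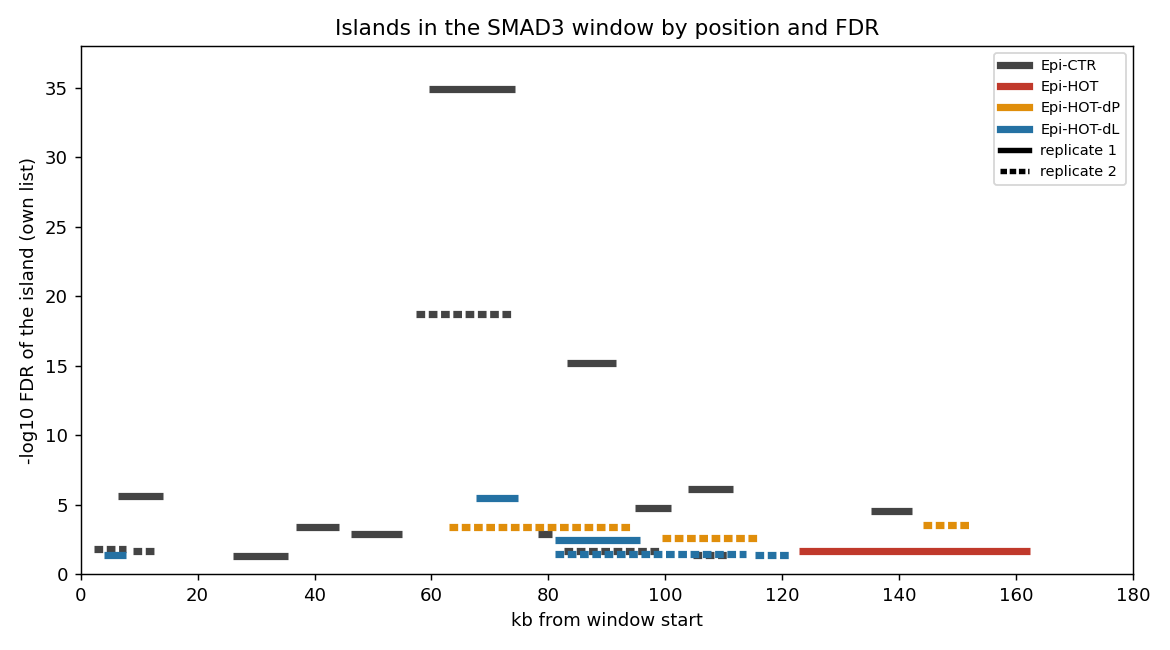
The islands of the SMAD3 window are drawn as horizontal lines, with kb from the window's start on the horizontal axis and minus log10 of the FDR in the island's own list on the vertical axis; solid lines are replicate 1, broken lines replicate 2. The Epi-CTR islands that start at 57.4 and 59.6 kb stand highest, and the Epi-HOT island lies to the right of them near the FDR limit; heights of different lists are not on a shared scale.

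The inhibitory SMAD6 has its window next to that of SMAD3, from 66970001 to 67100000, and held the most islands, 30. Its cover was 46.3% and 14.6% in Epi-CTR, 51.7% and 0% in Epi-HOT, 0% and 27.2% in Epi-HOT-dP, and 12% and 63.4% in Epi-HOT-dL. The replicates of each line lay far apart, and the ranges of all 4 lines overlapped. In Epi-CTR replicate 1 the cover came from 9 islands of 3.4 to 9.8 kb, and in Epi-HOT replicate 1 from 3 islands of 7.2 to 38.4 kb. Of only 5.4 kb shared by the Epi-CTR libraries, 1.2 kb at 67034601 to 67035800 was a whole island of Epi-CTR replicate 2, with an FDR of 5.17e-06, and lay within islands of 3 further libraries, Epi-CTR replicate 1 and a replicate each of Epi-HOT-dP (2) and Epi-HOT-dL (1). The smallest FDR in the window, 1.60e-16, belonged to 67065201 to 67073400 in Epi-CTR replicate 1. That island lay within 67052401 to 67074000 in Epi-HOT replicate 1 (0.00172) and 67052201 to 67074000 in Epi-HOT-dL replicate 2 (9.88e-07), and Epi-CTR replicate 2 had none there. The region called in the most libraries, 6, was 66973601 to 67026400.

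SMAD7, on chromosome 18 from 46420001 to 46500000, was the member in which the mean covers of Epi-CTR and Epi-HOT were furthest apart, at 53.8 ± 8.84% and 2.75 ± 3.89% (SD, n = 2). Islands covered 60% and 47.5% of the window in Epi-CTR, 5.50% and 0% in Epi-HOT, 0% and 31.8% in Epi-HOT-dP, and 30% and 67.8% in Epi-HOT-dL. Both Epi-CTR libraries and both Epi-HOT-dL libraries lay above both Epi-HOT libraries. The core was 46461401 to 46484800 in Epi-CTR replicate 1 (FDR 2.46e-14), met by 46465801 to 46482600 in replicate 2 (0.00734), 46462001 to 46474200 in Epi-HOT-dP replicate 2 (0.00836), 46465601 to 46473600 and 46475401 to 46483800 in Epi-HOT-dL replicate 1 (2.58e-04 and 0.0175), and 46434801 to 46484800 in Epi-HOT-dL replicate 2 (1.28e-05). These 5 libraries hold the core and neither Epi-HOT library does. At the other end, Epi-HOT replicate 1 had an island from 46398201 to 46424400 (1.93e-08, place 260 of 6557), of which 4.4 kb lay in the window. Its end fell within 200 bp of those in both Epi-CTR libraries and Epi-HOT-dL replicate 2, at 46424200. Of 26 kb shared by the Epi-CTR libraries in this window, Epi-HOT replicate 1 covered 13.8%, Epi-HOT-dP replicate 2 54.6%, and the Epi-HOT-dL libraries 58.5% and 78.5%.

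The corepressor SKI has its window on chromosome 1 from 2140001 to 2270000. It was covered to 8.92% and 0% in Epi-CTR, 57.7% and 0% in Epi-HOT, 0% and 29.8% in Epi-HOT-dP, and 24.9% and 80.6% in Epi-HOT-dL. Both Epi-HOT-dL libraries lay above both Epi-CTR libraries, the only such case among the 9 windows (17% of the 130 kb tiles). The list of Epi-HOT-dL replicate 2 also covered the most of the autosomes, 7.26% against 3.24% or less in the other libraries. Epi-HOT overlapped Epi-CTR because its replicate 2 had no island. The cover came from very wide islands. Epi-HOT replicate 1 had 2080001 to 2159200 (FDR 0.00332) and 2214201 to 2293600 (0.0242), of 79.2 and 79.4 kb and each crossing an edge of the window. Epi-HOT-dL replicate 2 had 2080001 to 2159400 (2.46e-27), 2160601 to 2192400, 2214201 to 2238000 and 2240201 to 2295200 (7.73e-28, place 147 of 15758). The starts at 2080001 and 2214201 were the same in both lists, and an island of Epi-HOT-dL replicate 1 ended at 2159200. The 3 islands of Epi-CTR replicate 1 were 2.2 to 6.6 kb wide, and replicate 2 had an island only outside the window, at 2287801 to 2295200. Merged over all lists, the wide islands joined most of these into a region from 2214201 to 2295200 that 6 libraries held. The Epi-CTR replicate 1 island from 2185601 to 2187800 lay outside that region.

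SKIL, on chromosome 3 from 170050001 to 170140000, had the region called in the most libraries. Between 170061001 and 170085600, 7 libraries had an island, all but Epi-HOT replicate 2. The smallest FDR there was 1.40e-05 in Epi-HOT-dL replicate 1 (170073601 to 170077600, place 641 of 16768), followed by 4.71e-05 in Epi-HOT-dP replicate 2 (170076001 to 170079800) and 5.41e-05 in Epi-CTR replicate 2 (170068001 to 170085600). Epi-HOT replicate 1 was called at its end, 170079601 to 170085600 (0.0418), and Epi-HOT-dP replicate 1 at its beginning, 170062401 to 170073800 (0.0291, place 1089 of 1116). The islands of these last 2 libraries do not overlap each other. The smallest FDR of the whole window, 4.79e-06, lay elsewhere, in a 2.2 kb island of Epi-CTR replicate 1 from 170136001 to 170138200, where Epi-HOT-dL replicate 1 also had an island (0.0294). Cover was 11.1% and 43.3% in Epi-CTR, 6.67% and 0% in Epi-HOT, 12.7% and 4.22% in Epi-HOT-dP, and 12% and 9.33% in Epi-HOT-dL, so both Epi-HOT libraries lay below the other 6 but for Epi-HOT-dP replicate 2.

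Epi-HOT was set against Epi-CTR to see where LSD1 sits at these genes when HOTAIR is expressed. Islands of the 4 lists were merged into regions where they touched, and a region was called lost when both Epi-CTR libraries and neither Epi-HOT library held it, gained in the opposite case and kept when all 4 held it. Of 46 regions in the windows, 14 were lost, against 15.1% of all 29678 regions, and none was gained or kept (0.145% and 0.381% of all regions). Of the 21 regions held by both Epi-CTR libraries, 66.7% were lost, close to the 69.3% over all such regions. SMAD3 had 4 lost regions, SMAD7 3, SMAD6, TGFBR2 and TGFB1 2 each, TGFB2 1, and TGFBR1, SKI and SKIL 0. As the windows were chosen with these islands known, nothing is read from the 14 as a share.

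Cover comes from the same islands, so it is no separate support for these calls. In 6 windows (SMAD3, SMAD7, TGFBR2, TGFB1, TGFB2 and SKIL) both Epi-HOT libraries lay below both Epi-CTR libraries, and in 0 above. The shares of 130 kb tiles were 27.7% and 0.849%, and nothing is read from the 6 as a share. The 0 rests on the short list of Epi-HOT replicate 2. Replicate 1 lay below both Epi-CTR libraries in the same 6 windows. It lay above both in the SMAD6 window (51.7% against 46.3% and 14.6%) and that of SKI (57.7% against 8.92% and 0%). With Epi-HOT replicate 2 left out, 15 regions were lost, 1 was gained, at 66973601 to 66980800 in the SMAD6 window, and 6 were kept. A region lost with both Epi-HOT libraries stays lost with either of them, so leaving either out can only add to that count, and the rise says nothing of its stability. Without Epi-HOT replicate 1 the counts were 18 lost, 0 gained and 1 kept. Asking for a region in a single Epi-CTR library raised the lost count to 23 without replicate 1 and 30 without replicate 2. At an FDR of 0.001 or less, 4 lost regions were left: the SMAD3 peak at 67387401 to 67404200, 67033201 to 67039200 and 67092801 to 67100200 in the SMAD6 window, and 46427401 to 46433200 in the SMAD7 window. With each list cut to its best 1116 islands, the SMAD3 peak alone was left.

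Where the Epi-HOT islands lay can be read without counting regions. The Epi-CTR libraries shared 122 kb of island bases in the 9 windows. Epi-HOT replicate 1 covered 11.1% of them, Epi-HOT-dP replicate 2 45.2%, and the Epi-HOT-dL libraries 40% and 68.9%. Over all 26894 kb that the Epi-CTR libraries shared, the same libraries covered 31.7%, 31.3%, 30.6% and 55.1%. The short lists, Epi-HOT replicate 2 and then Epi-HOT-dP replicate 1, covered 5.41% and 6.89% here, and 4.22% and 1.31% overall. Epi-HOT replicate 1, whose islands took up about as much of the windows as those of Epi-CTR replicate 2, had 13.6 of its 211 kb in the bases that both Epi-CTR libraries shared. The same part of its whole list was not worked out, so nothing is read from this part. Of the 211 kb, 67.2 kb lay in the SMAD6 window and 75 kb in that of SKI, where the Epi-CTR libraries shared 5.4 and 0 kb. These islands were not apart from all Epi-CTR islands, since those of Epi-HOT replicate 1 made 12 overlapping pairs with Epi-CTR replicate 1 and 4 with Epi-CTR replicate 2. This is a single library, and the spread of its share over cultures is not known.

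The 14 regions lost in Epi-HOT were looked up in the lines with a deleted HOTAIR. Epi-HOT-dL replicates 1 and 2 held 6 and 7 of them, Epi-HOT-dP replicate 2 held 7 and Epi-HOT-dP replicate 1 held 0. Over all 4485 lost regions those shares were 33.3%, 44.9%, 26.1% and 1.29%. Both Epi-HOT-dL libraries held 2, the SMAD7 core at 46461401 to 46484800 and 67412601 to 67431000 in the SMAD3 window, against 18.9% over all lost regions. Both Epi-HOT-dP libraries held 0. In 2 of the 14, at 218569201 to 218572800 in TGFB2 and 30619001 to 30623200 at the edge of TGFBR2, no library of either deleted form had an island, against 34.4% of all lost regions.

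Epi-HOT-dL was compared with Epi-HOT to ask what is seen at these genes when the LSD1-interacting part is missing. Of 25 regions, 3 were gained, against 11.5% of all regions, and none was lost or kept (0.261% and 0.195%). No region here was held by both Epi-HOT libraries, of which 33.9% were lost over all regions. The 3 gained regions were 67411201 to 67443800 in SMAD3, 46434801 to 46484800 in SMAD7 and 218518201 to 218521000 in TGFB2. Both Epi-HOT-dL libraries held 9 regions here, and 33.3% of these were gained, against 68.2% over all. For the other 6 the island of Epi-HOT was in replicate 1, and without that library 9 regions were gained and 1 lost. Without Epi-HOT replicate 2 there were 3 gained, 1 lost and 6 kept regions, and without Epi-HOT-dL replicate 1 or 2 there were 9 or 11 gained. In the SMAD7 and SKIL windows, both Epi-HOT-dL libraries were covered more than both Epi-HOT libraries (25.8% of tiles), and in 0 windows less (1.8%).

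Width matters to the SMAD3 and SMAD7 gains. In both, the region is an island of Epi-HOT-dL replicate 2, 32.6 and 50 kb wide, with islands of 8 to 14.4 kb from replicate 1 in part of it. When a library had to cover at least 50% of a region to hold it, 1 region was called gained in the windows, that of TGFB2, and with lists of 1116 islands 0 were. At an FDR of 0.001 or less, 2 were gained, that of SMAD7 and another in SKI, 2239601 to 2295200. The Epi-HOT-dL islands of the TGFB2 region had FDRs of 0.00712 and 0.0455. In the SMAD3 region, the replicate 2 island had an FDR of 0.0373.

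The comparison of Epi-HOT-dP with Epi-HOT concerns the part of HOTAIR that interacts with PRC2, and it gave no call at these genes. Of 24 regions, 0 were gained, 0 lost and 0 kept, against 0.811%, 1.13% and 0.0804% of all regions. This follows from the lists, since neither line had a region held by both of its libraries here. With Epi-HOT-dP replicate 1 left out, 12 regions were gained, among them 4 in TGFB1, 2 each in SMAD3 and SMAD6, and 1 each in SMAD7, TGFB2, TGFBR1 and SKI. With Epi-HOT replicate 2 left out, 2 were lost, 1 in TGFB2 and 1 in SMAD6. In 0 windows did the covers of the 2 lines separate (2.1% of tiles with Epi-HOT-dP higher and 2.74% with it lower).

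A further pair of comparisons took Epi-CTR as the base and so share its libraries with the first. Epi-HOT-dL kept 6 regions, 1 each in SMAD3, SMAD7, TGFB1, TGFB2, SKI and SKIL, lost 4 and gained 0, beside 4.98%, 6.14% and 4.17% of all regions. Of 17 regions held by both Epi-CTR libraries it lost 4 (37.6% over all such regions), and of 9 held by both Epi-HOT-dL libraries 0 were gained (32.4%). Its cover lay below Epi-CTR in both libraries in the SMAD3, TGFBR2 and TGFB2 windows (14.9% of tiles). The lost ones were 218547801 to 218558400 and 218569201 to 218572800 in TGFB2, 46427401 to 46433200 in SMAD7 and 30619001 to 30623200 in TGFBR2. Leaving out any library of the 4 raised the lost regions to between 8 and 14, and 2 regions were gained without Epi-HOT-dL replicate 1, 3 without its replicate 2 and 3 without Epi-CTR replicate 1. None of the 6 kept calls stood at an FDR of 0.001, with lists of 1116 islands or with 50% cover of a region. The kept SKI region, 2239601 to 2295200, counts through an Epi-CTR replicate 2 island outside the window, at 2287801 to 2295200. Epi-CTR replicate 2 covered 0% of the SKI window itself. Epi-HOT-dP kept 1 region, in SKIL, lost 8 and gained 0, beside 0.15%, 15.3% and 0.303% of all regions. It lost 8 of 16 regions held by both Epi-CTR libraries (69.6% over all), and the SKIL region was the only one held by both Epi-HOT-dP libraries, of which 48.7% were gained over all. Their islands in that region, 170062401 to 170073800 in replicate 1 and 170076001 to 170079800 in replicate 2, do not overlap. An Epi-CTR replicate 2 island, 170068001 to 170085600, joins them. Both Epi-HOT-dP libraries lay below Epi-CTR in cover in the SMAD7 and TGFBR2 windows (28% of tiles) and above it in 0 (1.56%). The 8 were 2 each in TGFB2 and TGFBR2 and 1 each in SMAD3, SMAD6, SMAD7 and TGFB1. The kept SKIL call ended under the same 3 settings. Without Epi-HOT-dP replicate 1, 9 were lost, 7 kept and 5 gained. Without Epi-HOT-dP replicate 2, 17 were lost, and without Epi-CTR replicate 1 or 2, 15 or 21.

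Across members, islands in the windows were mostly wider than those of the same list, but a wide island also meets a window more easily. The median width was 6.2 kb against 3.8 kb for the list in Epi-CTR replicate 1, 5.6 against 4.4 kb in Epi-CTR replicate 2, 23.9 against 7 kb in Epi-HOT replicate 1, 8.2 against 8.6 kb in Epi-HOT-dP replicate 2, 4.8 against 3.8 kb in Epi-HOT-dL replicate 1 and 16 against 7.6 kb in replicate 2. The libraries with the widest islands here were Epi-HOT replicate 1 along with Epi-HOT-dL replicate 2. In 7 of their 12 overlapping pairs of islands an edge lay within 400 bp. Over their whole lists this held for 48.9% of such pairs, the largest share for any pairing of libraries. Nothing is therefore read from the 7 as a trait of these windows. Taking all libraries together, an edge was this near in 25.9% of 224 pairs in the windows and 28.0% of pairs in the lists. Members differed in width as well, with a median of 3.1 kb in TGFBR2 and 11.3 kb in SKI.

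**Figure D3:**
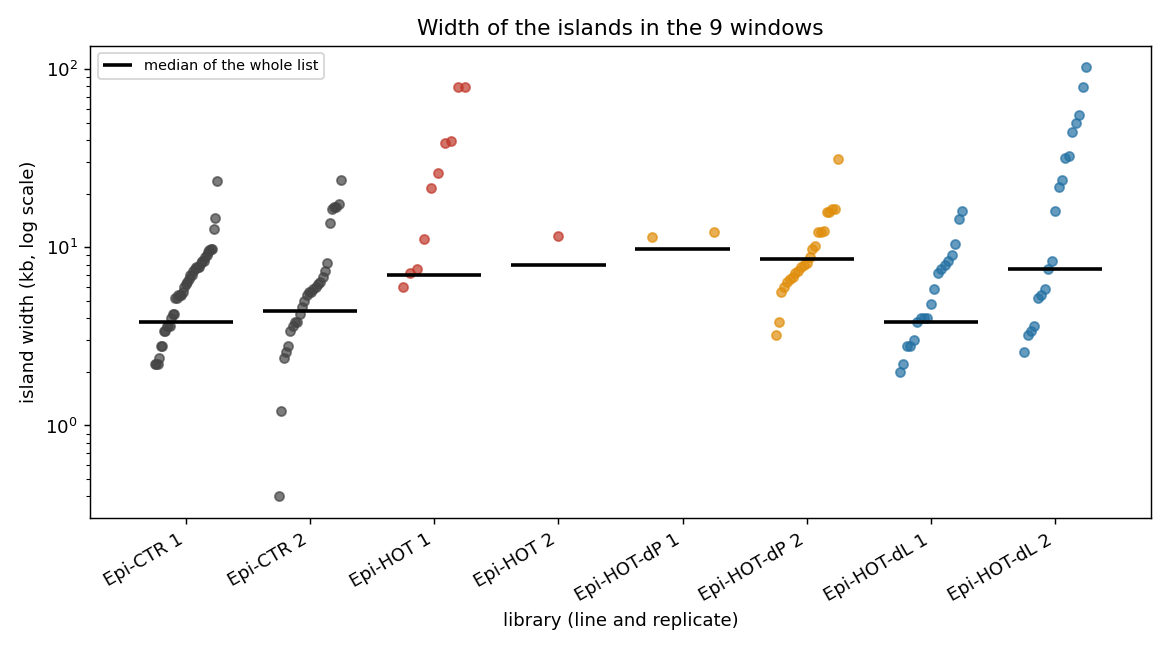
Each point is an island in a window, with its full width in kb on the log-scaled vertical axis and the library on the horizontal axis; points are ordered by width within a library, and the black line is the median of that library's whole list. The points of Epi-HOT replicate 1 reach 79.4 kb and those of Epi-HOT-dL replicate 2 reach 102.2 kb, and Epi-CTR replicate 1 stays at 23.4 kb or less.

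The bounds of the windows decide which islands count. In all, 15 of the 145 islands crossed an edge, and 30 more lay within 20 kb outside, of which 8 were around SMAD7, 6 around SMAD6 and 0 around SKIL. Just inside, the Epi-CTR islands at 30619001 crossed the edge of the TGFBR2 window. Just outside, 3 libraries had an island before the SMAD3 window, at 67315001 to 67322600 in Epi-CTR replicate 1 (FDR 6.76e-06), 67313601 to 67323000 in Epi-CTR replicate 2 (3.07e-04) and 67314001 to 67322800 in Epi-HOT replicate 1 (0.0191). That place, unlike the SMAD3 peak, was held by both Epi-CTR libraries and an Epi-HOT library.

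Merged over all 8 lists, the windows held 36 regions, of which 12 were called in a single library and 12 in 4 or more. Islands of 4 or more libraries met in every window but those of TGFBR1 and TGFBR2. No region was called in all 8 libraries.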

How the data were processed

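LSD1 ChIP-seq was done on 4 HEK-based lines with 2 cultures each, 16 libraries in all. Bowtie2 2.1.0, SICER 1.1 and the build hg19 come from the submitters' processing notes, which assign them no step. Per the labels, each deposited list holds islands called with windows of 200 bp, gaps of 1000 bp and a false discovery rate (FDR) of at most 0.05, after a further filter whose content the labels do not state. The only value per island is this FDR, an adjusted p-value the authors deposited; it ranks islands within a list only. Lists hold no reads, so depth is unknown.

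The windows, members and tests were chosen with earlier results of these data known. All 9 members are named, each with a region called in the most libraries and the island of smallest FDR; further regions were chosen after their values were seen. Islands were merged at 1 bp. Background shares cover all regions, or autosomal tiles of 130 kb with an island in any list. No test was run: 2 libraries against 2 cannot go below an exact two-sided p of 0.333. The gene table belongs to GRCh38.p14, so no windows were drawn for other pathway genes. Alternatives were an FDR of 0.001, lists of 1116 islands, 50% cover of a region, windows widened by 20 kb, and each library left out. Coordinates count from 1. The counting was tested on simulated lists. Python 3.11.15, numpy 2.4.6, pandas 2.3.3 and matplotlib 3.10.9 were used.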

Additional observations from a re-analysis of the deposited data

How the results depend on the processing

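Of 140 values under the alternatives, 97 stayed within the spread of the replicates (cover) or within 1.5 times the reported count, and 43 moved. Some of the 97 could not move, so their number is no measure of stability. No region in the windows was held by both Epi-HOT libraries. Counts of 0 that need such a region stayed 0 by construction at an FDR of 0.001, with lists of 1116 islands or with 50% cover. For Epi-HOT and Epi-HOT-dP the SD of the cover exceeded its mean, so no fall could pass that limit: Epi-HOT went from 10.4% to 1.08% at an FDR of 0.001 and 0.729% with lists of 1116 islands, and Epi-HOT-dP from 11% to 5.68% and 1.32%. For the values that moved, the cause was not tested, beyond fewer islands entering by construction. At an FDR of 0.001 the cover of the windows in Epi-CTR was 14.6%, Epi-HOT lost 4 regions against Epi-CTR, Epi-HOT-dP lost 2 and kept 0 against Epi-CTR, and Epi-HOT-dL kept 0. With lists of 1116 islands the cover was 4.10% in Epi-CTR and 6.09% in Epi-HOT-dL, Epi-HOT lost 1 region and Epi-HOT-dP lost 1 against Epi-CTR, Epi-HOT-dL gained 0 against Epi-HOT, and against Epi-CTR Epi-HOT-dL lost 0 and kept 0 and Epi-HOT-dP kept 0. With 50% cover of a region, Epi-HOT-dL gained 1 against Epi-HOT, and Epi-HOT-dL and Epi-HOT-dP kept 0 against Epi-CTR. Windows widened by 20 kb moved nothing past these limits. A count under an alternative need not be of the reported regions. The Epi-HOT-dP loss with lists of 1116 islands, 67387401 to 67404200 in SMAD3, was not among its reported losses against Epi-CTR. Nor was 41840201 to 41864000 in TGFB1, lost at an FDR of 0.001. At that FDR, Epi-HOT-dL losses against Epi-CTR included 67033201 to 67039200 and 67092801 to 67100200 in SMAD6, which were not reported losses either.

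With each library left out in turn, Epi-HOT against Epi-CTR gave 15 to 30 lost, 0 to 1 gained and 0 to 6 kept regions. Epi-HOT-dL against Epi-HOT gave 3 to 11 gained, 0 to 1 lost and 0 to 6 kept, and Epi-HOT-dP against Epi-HOT 0 to 12 gained and 0 to 2 lost. Against Epi-CTR, Epi-HOT-dL gave 0 to 3 gained and 8 to 14 lost, and Epi-HOT-dP 0 to 5 gained, 9 to 21 lost and 1 to 7 kept. Leaving out a library makes the calls of its line rest on 1 library. No paired analysis was possible because no result comes from a test, so there was no fit to which a replicate block could be added. Depth is unknown, so a missing island is not a missing site.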
